A study of Homo sapiens with 48 samples.

Results

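Poly(A) RNA of unstimulated HEK293 cells was compared between 24 h and 6 h of incubation in medium without serum. Of the 48 libraries of the series, 10 entered the comparison: 6 control libraries at 24 h and 4 at 6 h, selected by the treatment and time in their labels. HEK293 is a line of human embryonic kidney origin. All cells used here came from a line that stably carries the angiotensin II receptor AT1R (gene AGTR1), obtained with a puromycin resistance plasmid, selected in puromycin and losartan and cloned by limited dilution, so the data describe 1 selected line and not HEK293 cells at large. The control cells received no stimulus and, like all other groups, were moved from medium with fetal calf serum to DMEM without it. In the other groups of the series, cells received 1 nM angiotensin II (AII), 10 µg/L EGF or both for the same times. The labels name the 2 remaining control 6 h libraries, replicates 1 and 2, as well, but their counts equalled those of libraries with another label within counting noise (chi-square per degree of freedom 0.397 against EGF 24 h replicate 2 and 0.505 against AII 24 h replicate 4). These 2 libraries were left out. Nothing in the labels states that replicates came from separate cultures, so the p-values measure the spread between these libraries, which may be technical.

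Serum supplies cultured cells with growth factors, lipids and transferrin-bound iron. When it is withdrawn, signalling through growth factor receptors declines, and ribosome production and proliferation are usually slowed. A culture that is not fed also consumes glucose, amino acids and oxygen from its medium and adds lactate to it. Hypoxia-inducible factors (HIF) activate glycolytic enzymes and collagen-modifying enzymes when oxygen is short. Heat shock factor 1 drives the genes of the cytosolic chaperones, which fold newly made and damaged proteins. The 2 times differ in all of these at once, and no separate serum-containing control or fresh medium control was analysed here.

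Library totals of the 10 libraries ranged from 19 to 26.9 M counts (M, mega). The higher mean at 24 h did not pass the test (21 ± 1.53 at 6 h, SD, n = 4, and 23.3 ± 2.4 M counts at 24 h, SD, n = 6, exact permutation test, two-sided p = 0.119). The share of counts in the 100 most abundant genes was 23% ± 2.49 (SD, n = 4) at 6 h and 24.9% ± 3.5 (SD, n = 6) at 24 h (exact permutation test, two-sided p = 0.395). Each run of consecutive sample titles held libraries of 1 time only. The control libraries used at 24 h fell into 4 such runs and those used at 6 h into 3, so time and run cannot be told apart.

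A check of the labels used the AII libraries, none of which enters the comparison. On a scale set by 1943 genes called between AII 6 h (position 0) and AII 24 h (position 1), the 4 control 6 h libraries used lay at 0.18 to 0.25 and the 6 control 24 h libraries at 0.59 to 1.1. Control 24 h replicate 6 was lowest at 0.59, and the other 5 lay at 0.85 or above. That library also correlated more closely with the 6 h libraries (mean r 0.984 across genes) than with its own group (0.977), the closest being control 6 h replicate 6 (0.99). Among the control genes called below with this library included, it lay within the 6 h range in 60 of 608 rises and 4 of 189 falls. Whether its 24 h label is right was not tested and cannot be told from these values. Every 24 h value that follows includes it unless stated otherwise. Control 24 h replicate 3 stood apart in a different way. Ribosomal protein genes took 13.5% of its counts, against 7.49 to 11% in the 9 other libraries. The 2 libraries left out lay at 0.67 and 0.78, beside the 24 h libraries in spite of their 6 h label.

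**Figure D1:**
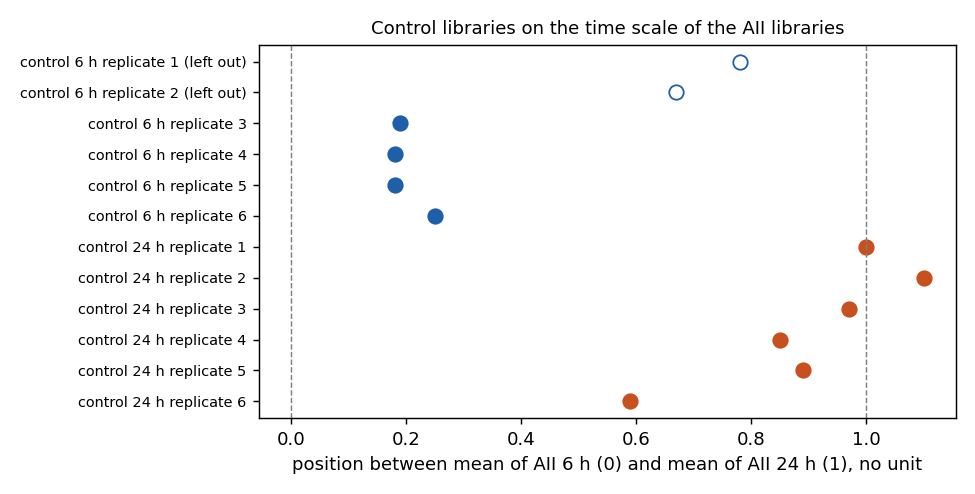
Position of each control library (rows) between the mean of the AII 6 h libraries (0) and the mean of the AII 24 h libraries (1), over 1943 genes. Filled circles are the 10 libraries used (blue 6 h, orange 24 h) and open circles the 2 left out. The 24 h libraries lie at 0.59 or above and the 6 h libraries used at 0.25 or below.

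More genes rose than fell between 6 h and 24 h. Of 17780 genes tested, 608 were higher and 189 lower at 24 h. These calls rest on the quasi-likelihood test of edgeR, with p-values adjusted after Benjamini and Hochberg (under 0.01), and on 2 limits of size. The fold had to reach 1.5, and the time with the higher mean had to exceed 5 CPM. CPM is a gene's count per 1 M counts of its library, with the total scaled by TMM factors. The calls amount to 3.42% of tested genes in the upward and 1.06% in the downward direction. At an adjusted p under 0.05 alone, without the fold and abundance limits, 2510 genes (14.1%) were higher and 1413 (7.95%) lower. The libraries of the 2 times did not overlap in 2852 genes (16%). Among the called genes, 540 of the 608 rises and 183 of the 189 falls showed no overlap. The called rises had a median change of 1.96-fold, and the called falls a median of 1.63-fold. In bulk RNA, fewer cells with a transcript and less transcript per cell cannot be told apart.

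The number of calls depended strongly on single libraries. Leaving out 1 library at a time gave between 34 and 1408 called genes. The lowest came without control 6 h replicate 4 and the highest without control 24 h replicate 6. Without both control 24 h replicates 3 and 6, a setting chosen after the data were seen, 1140 genes were higher and 785 lower. When the 2 near-identical libraries were added to the 6 h group, 3 genes remained. With the counts summed to 1 sample per run (4 against 3), 1 gene was called and 1314 had an adjusted p under 0.05. A called gene was called again in a median of 4 of the 10 fits. All 797 called genes kept their direction in each of these fits. Of them, 796 had an adjusted p under 0.05 in all 10 fits that left out 1 library. The genes were selected in these same libraries, so this is largely set by the selection and is no independent support. Scaling by library totals alone gave 734 higher and 96 lower genes, and RLE factors gave 540 and 257.

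**Figure D2:**
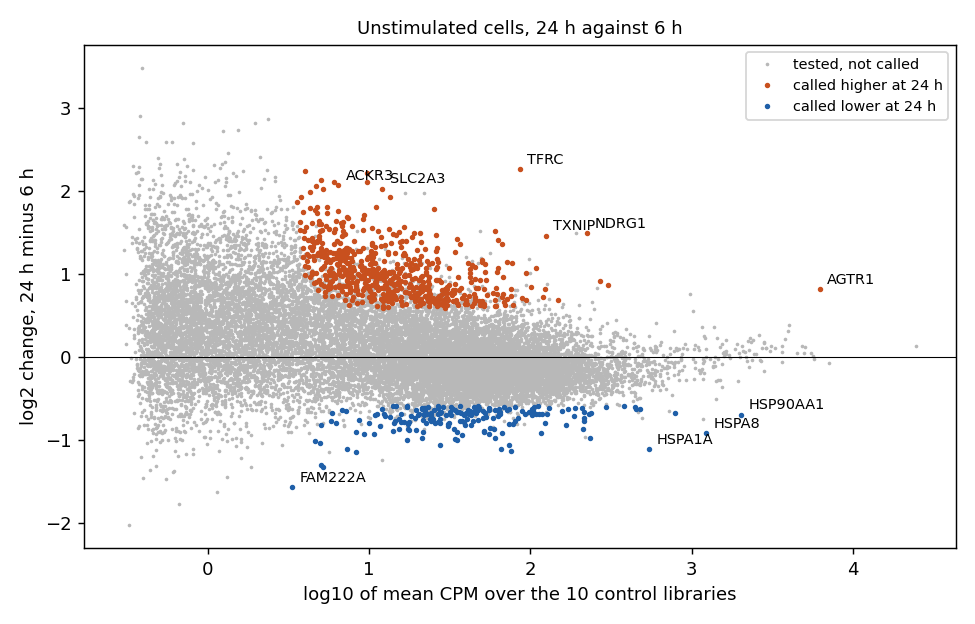
Log2 change from 6 h to 24 h (vertical axis) against the log10 of the mean CPM over the 10 control libraries (horizontal axis). Orange marks 608 genes called higher, blue 189 called lower and grey the other tested genes. Rises lie mainly among genes of low and middle abundance, and the falls include chaperone genes of high abundance.

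Direction and abundance were related. Of 3490 genes with 1 to 5 CPM, 75% had a positive log2 change (median 0.38), while of 2330 genes above 100 CPM, 25.2% had one (median -0.16). At 20 to 100 CPM 37.9% had one (median -0.096). The calls followed this order, with 379 rises and 30 falls at 5 to 20 CPM and 14 rises and 43 falls above 100 CPM. The shares over all genes that stand beside the lists below are not matched for abundance. Called rises had a median of 7.61 CPM at 6 h and called falls 48.5 CPM, against 36.4 CPM over tested genes above 5 CPM. At 24 h these medians were 15, 28.5 and 35 CPM. The 6 h values are the lower side of every rise and the higher side of every fall, which widens their gap. A call requires only the higher of the 2 means to exceed 5 CPM. The number of genes with a count was 25455 to 27447 in the 6 h libraries and 26161 to 29370 in the 24 h libraries, and its part in these differences was not tested.

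The largest rise among called genes without overlap was that of TFRC, the transferrin receptor through which cells take up iron (chr3:196049284-196082090, GRCh38). TFRC stood at 21.4, 24.8, 24.6 and 34.2 CPM in the 4 libraries at 6 h and at 81.4 to 151 CPM with a median of 132 CPM at 24 h. Every 24 h library lay above every 6 h library, as the choice among genes without overlap required, the lowest being replicate 6. The rise of 4.78-fold (log2 change 2.26 ± 0.19 (SE), edgeR adjusted p = 0.000157) was the only one called after summing by run, and it was called in all 10 fits that left out a library.

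The other 11 of the 12 largest called rises without overlap started at low levels of 1.38 to 5.06 CPM. They included several membrane proteins. KCNJ4, an inwardly rectifying potassium channel, and KCNN4, a calcium-activated potassium channel, rose 4.17-fold and 4.06-fold (edgeR adjusted p = 0.00141 and 0.00151). ACKR3, an atypical chemokine receptor, had 2.44, 2.50, 1.98 and 1.91 CPM at 6 h and 4.17 to 12.3 CPM with a median of 10.2 CPM at 24 h (log2 change 2.06 ± 0.27 (SE), edgeR adjusted p = 0.00137). PTGFR, the receptor of prostaglandin F2 alpha, rose by 1.86 on the log2 scale (edgeR adjusted p = 0.00247). SEMA5B, a semaphorin, rose 4.30-fold (edgeR adjusted p = 0.00137). PPFIA4, a liprin of cell contacts, reached 5.05 to 23.2 CPM with a median of 12.3 CPM at 24 h against 3.55, 3.68, 2.47 and 3.33 CPM at 6 h, a wide spread within the later group. The remaining members of this set were KRTAP19-1, TMEM271, KNDC1, STUM and OLFML2A, with log2 changes of 2.13, 1.98, 1.93, 1.92 and 1.81. KRTAP19-1 belongs to a family of similar keratin-associated proteins, and its counts may hold reads of relatives.

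The 12 largest called falls without overlap were smaller, from -1.01 to -1.57 on the log2 scale. FAM222A was first, at 5.61, 6.14, 4.08 and 6.34 CPM at 6 h and 1.17 to 3.40 CPM with a median of 1.57 CPM at 24 h (log2 change -1.57 ± 0.28 (SE), edgeR adjusted p = 0.00321). ADI1, an enzyme of methionine salvage, went from 136, 110.1, 110.0 and 96.5 CPM to 37.5 to 69 CPM with a median of 48.3 CPM (log2 change -1.13 ± 0.17 (SE), edgeR adjusted p = 0.00161). NCOA5, a nuclear receptor coregulator, and PIGW, an enzyme of GPI anchor synthesis, fell 2.16-fold and 2.09-fold (edgeR adjusted p = 0.00137 and 0.00108), both in all 10 fits that left out a library. SLC27A4, a fatty acid transporter, fell 2.01-fold (edgeR adjusted p = 0.0032). The chaperone genes HSPA1A and HSPH1 are described with their group. The pseudogenes CTBP2P9 and CTBP2P10 showed nearly equal values in every library (8.74, 8.87, 8.79 and 6.25 and 8.37, 8.69, 8.26 and 5.99 CPM at 6 h). Both derive from CTBP2, so how reads were divided among these copies is uncertain. CARD8-AS1, a long noncoding RNA antisense to CARD8, the zinc finger gene ZNF341 and the long noncoding RNA ENSG00000261659 complete the set with log2 changes of -1.04, -1.02 and -1.15. For an antisense gene, reads of its partner cannot be told apart, as the strand setting of the counting is not given in the sources used here.

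Cytosolic chaperones fell together. In the heat shock list, 8 of 17 tested members were called lower and none higher, against 1.06% of all genes. At an adjusted p under 0.05, 11 were lower and 1 was higher. The median log2 change of the list was -0.60, beside 0.03 over all tested genes. When single libraries were left out, the median ranged from -0.67 to -0.56 and the called falls from 2 to 8. The libraries of the 2 times did not overlap in 11 members, against 16% of all tested genes.

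HSPA8, the constitutive cytosolic HSP70, had 2088, 1851, 1596 and 1346 CPM at 6 h and 763 to 1082 CPM with a median of 917 CPM at 24 h (log2 change -0.92 ± 0.15 (SE), edgeR adjusted p = 0.00226). HSP90AA1, the inducible cytosolic HSP90, had 2783, 2492, 2787 and 2447 CPM and 1275 to 1902 CPM with a median of 1650 CPM (log2 change -0.70 ± 0.14 (SE), edgeR adjusted p = 0.00506). In neither gene did the groups overlap. HSPA1A, an inducible HSP70, fell 2.16-fold from 801, 856, 566 and 1004 CPM to 305 to 438 CPM with a median of 376 CPM (edgeR adjusted p = 0.00141). Its neighbour HSPA1B fell 1.97-fold (edgeR adjusted p = 0.00156). These 2 genes are nearly identical in sequence, and how reads were divided between them is uncertain. The nucleotide exchange factor HSPH1 (-1.06) and the HSP40 cochaperone DNAJA1 (-0.71) fell as well (edgeR adjusted p = 0.00137 and 0.00313). The small heat shock protein HSPB1 went the other way, with 39.2, 29.8, 21.6 and 22.8 CPM at 6 h and 28.8 to 88.9 CPM with a median of 41.2 CPM at 24 h (log2 change 0.81 ± 0.28 (SE), edgeR adjusted p = 0.0496), below the called threshold and with overlapping groups. Control 24 h replicate 6, which lay near the 6 h libraries in many genes, shared the fall. Only 2 of the 17 chaperone genes had a value in it within the range of the 6 h libraries. Its list mean was -0.42 on the log2(CPM + 1) scale relative to 6 h, beside -0.66 to -0.39 in the other 5 libraries at 24 h.

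Promoters of this group were read from RefSeq (GRCh38.p14), taking for each gene the 250 bases before its first listed start. Of the 17 members, 15 matched. Heat shock factor binding sites are built from repeats of GAA and its reverse, and the letters TTCNNGAA or GAANNTTC were searched on both strands, a motif pair added after the data were seen. In this window 6 of 15 heat shock promoters (40%) held such a match, against 11.7% of all 27305 promoters and 8.63% of those of tested genes. The genes with a match were CHORDC1, DNAJA1, HSPA1A, HSPA1B, HSPA8 and HSPB1, the last of which was higher at 24 h. Whether a match goes with the fall was not tested. HSPA1A and DNAJA1 are shown as examples with the matches in capitals.
HSPA1A, chr6:31815293-31815542, plus strand: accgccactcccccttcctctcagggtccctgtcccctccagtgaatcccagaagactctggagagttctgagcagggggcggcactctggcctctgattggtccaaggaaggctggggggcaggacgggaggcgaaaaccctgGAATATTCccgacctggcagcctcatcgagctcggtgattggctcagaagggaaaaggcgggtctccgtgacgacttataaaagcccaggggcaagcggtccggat
DNAJA1, chr9:33025023-33025272, plus strand: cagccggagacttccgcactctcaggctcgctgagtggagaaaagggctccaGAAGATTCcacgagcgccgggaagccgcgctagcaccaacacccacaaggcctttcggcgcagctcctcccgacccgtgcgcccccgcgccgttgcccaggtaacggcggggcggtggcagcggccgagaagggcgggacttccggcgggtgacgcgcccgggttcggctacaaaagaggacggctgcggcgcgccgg

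Part of the genes of ribosome production fell. All 34 tested members of the ribosome biogenesis list had a negative log2 change, with a median of -0.37. Abundant genes leaned the same way. Of all tested genes, 37.9% at 20 to 100 CPM and 25.2% above 100 CPM had a positive change (medians -0.096 and -0.16). Of the 34 members, 6 were called lower (1.06% of all genes), 16 were lower at an adjusted p under 0.05 (7.95% of all genes), and none rose. Over the fits that left out a library the median was -0.42 to -0.34, with 0 to 8 called and 10 to 25 at an adjusted p under 0.05. RRS1, needed for assembly of the large ribosomal subunit, fell 2.00-fold (28.8, 22.5, 19.7 and 26.4 CPM at 6 h, 9.84 to 18.8 CPM with a median of 11 CPM at 24 h, edgeR adjusted p = 0.00323). UTP20 and UTP15, parts of the processome of the small subunit, changed by -0.89 and -0.87 (edgeR adjusted p = 0.00395 and 0.00233). The nucleolar helicase DDX21 was lower in every 24 h library than in any at 6 h, at -0.53 (edgeR adjusted p = 0.0283, not called). By contrast, none of the 42 ribosomal protein genes passed either threshold (median 0.04), and their summed level spanned 70660 to 122800 CPM at 6 h and 71700 to 149700 CPM at 24 h.

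Of 20 cytosolic aminoacyl-tRNA synthetase genes, which charge tRNAs, 6 were lower at an adjusted p under 0.05 (7.95% of all genes) and none was called (median -0.26). The 6 became 2 to 11 without single libraries. The polyamine list had 2 of 14 members higher and 3 lower at an adjusted p under 0.05 and none called (median -0.18). Over all genes 14.1% were higher and 7.95% lower, so the share of higher polyamine genes (14.3%) was that of the background. The higher ones were the polyamine oxidase gene PAOX (1.30, edgeR adjusted p = 0.0377) and SAT1, which acetylates polyamines (0.57, edgeR adjusted p = 0.0316). The spermidine synthase gene SRM had a log2 change of -0.81 (edgeR adjusted p = 0.0267, not called) and AMD1, which makes the aminopropyl donor, had -0.58 (edgeR adjusted p = 0.0106, not called). SRM was 128 CPM in control 24 h replicate 3, beside 48.7 to 67.7 CPM in the other 24 h libraries.

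No gene of the proliferation lists was called. In the mitosis and G2 list 29 of 30 members had a negative log2 change, and 9 were lower at an adjusted p under 0.05 (median -0.31), beside 7.95% of all genes. Negative changes were common among abundant genes, since 25.2% of genes above 100 CPM had a positive one (median -0.16). Without single libraries the 9 became 3 to 17. The spindle checkpoint kinase BUB1 stood at 139.7, 134, 135 and 131 CPM at 6 h and 78.5 to 101 CPM with a median of 94 CPM at 24 h without overlap (log2 change -0.56 ± 0.10 (SE), edgeR adjusted p = 0.00323), and missed the fold limit. CDC20, the activator of the anaphase-promoting complex, had 190.3, 170.0, 139 and 147 CPM and 73.6 to 152 CPM with a median of 98.7 CPM (log2 change -0.67 ± 0.18 (SE), edgeR adjusted p = 0.0164). The DNA replication list had 7 of 34 members lower at an adjusted p under 0.05 (median -0.255), and the replication-dependent histones 7 of 15 (median -0.58). Without single libraries these counts were 0 to 15 and 3 to 10. Histone messages of this class mostly lack a poly(A) tail, so poly(A) selection measures a minor part of them. Their levels were low, as in H2BC4 with 1.91, 2.64, 1.82 and 2.08 CPM at 6 h and 0.548 to 1.20 CPM with a median of 0.679 CPM at 24 h (log2 change -1.44 ± 0.26 (SE), edgeR adjusted p = 0.00323, below the abundance limit). Cyclin E1 (CCNE1) changed by -0.64 (edgeR adjusted p = 0.0142, not called). The G1 cyclin and CDK inhibitor list as a whole had 2 members higher and 2 lower at an adjusted p under 0.05 among 21. Over all genes 14.1% were higher and 7.95% lower.

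Promoters of mitotic genes often hold a CCAAT box and a cell cycle gene homology region (CHR). Of 24 matched members of the mitosis list, 21 (87.5%) held CCAAT and 14 (58.3%) held TTTGAA on either strand, against 33% and 13.6% of all promoters and 35% and 8.37% of those of tested genes. CDC20 is shown with both kinds of match in capitals.
CDC20, chr1:43358731-43358980, plus strand: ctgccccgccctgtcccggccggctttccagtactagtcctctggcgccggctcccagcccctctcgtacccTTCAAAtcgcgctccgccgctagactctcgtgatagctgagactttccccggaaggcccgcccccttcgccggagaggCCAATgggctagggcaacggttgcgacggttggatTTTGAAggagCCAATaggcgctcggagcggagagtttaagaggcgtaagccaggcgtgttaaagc

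Many HIF targets and some glycolytic genes rose, and 1 library at 24 h did not share this. Of 21 tested HIF targets outside glycolysis 7 were called higher and 12 were higher at an adjusted p under 0.05, against 3.42% and 14.1% of all genes, with a median log2 change of 0.63. In the glycolysis list 4 of 24 were called higher and 8 were higher at an adjusted p under 0.05 (median 0.36). The means of the HIF list over its members, on the log2(CPM + 1) scale relative to 6 h, were 0.63 to 0.67 in 5 of the 24 h libraries and -0.02 in replicate 6. In glycolysis the same 5 libraries had 0.42 to 0.87 and replicate 6 had -0.14. Of the 21 HIF targets, 14 separated the other 5 libraries at 24 h from all libraries at 6 h, and with replicate 6 included 4 did. With that library, 16% of all tested genes showed no overlap, so the 4 lie near the background. Without it, the share over all genes is not given here. Control 6 h replicate 6 had the lowest list mean of its group in both lists (-0.18 and -0.26). Leaving out single libraries gave 0 to 11 called HIF targets (10 to 15 at an adjusted p under 0.05) and 0 to 8 called glycolytic genes (5 to 14).

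NDRG1, a hypoxia- and stress-induced gene, had 127, 123, 95.5 and 85.9 CPM at 6 h, 288 to 405 CPM in 5 libraries at 24 h and 101 CPM in replicate 6 (log2 change 1.48 ± 0.29 (SE), edgeR adjusted p = 0.00448). The glucose transporter SLC2A3 had 5.30, 4.91, 4.99 and 1.82 CPM at 6 h, 17.1 to 24.3 CPM in 5 libraries at 24 h and 4.17 CPM in replicate 6 (log2 change 2.02 ± 0.41 (SE), edgeR adjusted p = 0.00497). P4HA1, a subunit of collagen prolyl 4-hydroxylase, had 73, 61.7, 70.1 and 55.5 CPM at 6 h and 63.9 to 156 CPM with a median of 149.8 CPM at 24 h (log2 change 1.07 ± 0.21 (SE), edgeR adjusted p = 0.00454). All 3 overlapped between the times through that 1 library. LOX, which crosslinks collagen and elastin, did not overlap and rose 2.67-fold from 18.3, 18.5, 18.6 and 14.4 CPM to 21.6 to 61.8 CPM with a median of 49.5 CPM (edgeR adjusted p = 0.00215). Called rises included the neuronal enolase ENO2 (1.49), PFKFB4, which sets the level of fructose 2,6-bisphosphate (1.35), the growth factor gene VEGFA (0.63) and EPAS1, which encodes HIF-2 alpha (0.92), with edgeR adjusted p = 0.00282, 0.00778, 0.00965 and 0.0027. HIF1A itself was lower at -0.34 (edgeR adjusted p = 0.0403, not called), and so was the monocarboxylate transporter gene SLC16A1 at -0.43 (edgeR adjusted p = 0.0152, not called).

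The core letters of the HIF site, ACGTG, searched on both strands, were present in 8 of 22 matched promoters of the glycolysis list (36.4%), against 18.7% of all promoters and 23.1% of those of tested genes. They overlap with the E-box CACGTG. For the HIF list the check is void, since under 80% of its members (16 of 21) had a promoter entry. P4HA1 and LOX are shown from this group, and TFRC as the largest called rise, with ACGTG or its reverse complement in capitals.
P4HA1, chr10:73096867-73097116, minus strand: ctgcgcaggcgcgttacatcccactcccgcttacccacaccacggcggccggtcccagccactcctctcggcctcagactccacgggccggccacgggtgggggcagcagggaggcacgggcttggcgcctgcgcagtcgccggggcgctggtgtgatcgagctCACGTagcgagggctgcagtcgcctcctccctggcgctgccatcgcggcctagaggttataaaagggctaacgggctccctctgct
LOX, chr5:122078260-122078509, minus strand: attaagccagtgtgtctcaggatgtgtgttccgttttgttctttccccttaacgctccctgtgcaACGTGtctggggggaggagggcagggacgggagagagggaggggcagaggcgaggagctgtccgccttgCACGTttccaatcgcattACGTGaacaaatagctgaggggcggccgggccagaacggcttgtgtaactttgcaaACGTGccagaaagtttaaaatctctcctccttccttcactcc
TFRC, chr3:196082091-196082340, minus strand: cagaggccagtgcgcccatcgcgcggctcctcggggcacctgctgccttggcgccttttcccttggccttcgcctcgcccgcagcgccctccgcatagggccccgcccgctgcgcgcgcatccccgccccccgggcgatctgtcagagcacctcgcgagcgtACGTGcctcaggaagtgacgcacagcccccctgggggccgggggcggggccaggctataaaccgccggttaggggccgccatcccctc

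**Figure D3:**
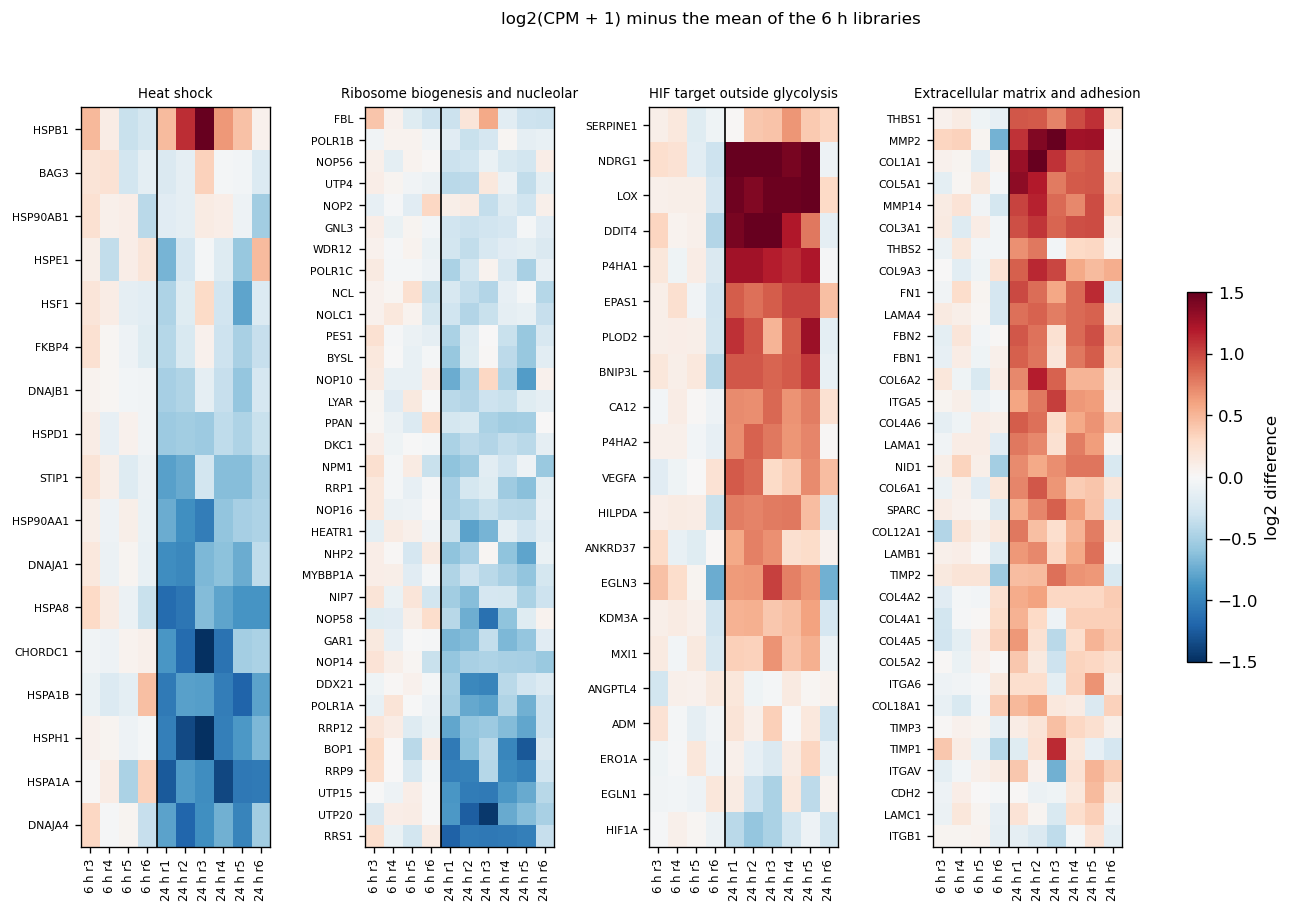
Level of each tested member (rows) of 4 gene lists in each of the 10 control libraries (columns, h for hours and r for replicate), as log2(CPM + 1) minus the mean of the 6 h libraries, with red for higher and blue for lower. The black line divides 6 h from 24 h. The chaperone and ribosome biogenesis lists have negative means in all 6 libraries at 24 h, while HIF targets are near the 6 h level in replicate 6 of 24 h.

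Matrix and adhesion genes rose. In this list 10 of 34 tested members were called higher (3.42% of all genes), 19 were higher at an adjusted p under 0.05 (14.1% of all genes) and none was lower, with 33 positive log2 changes and a median of 0.57. When single libraries were left out the median was 0.51 to 0.66, with 0 to 18 called and 13 to 22 at an adjusted p under 0.05. COL5A1, a fibril-forming collagen chain, had 24, 27.4, 29.8 and 26.1 CPM at 6 h and 31.5 to 69.3 CPM with a median of 51.6 CPM at 24 h (log2 change 0.96 ± 0.18 (SE), edgeR adjusted p = 0.00383), and every 24 h library lay above the 6 h libraries. The membrane-anchored matrix protease MMP14 rose 1.91-fold (edgeR adjusted p = 0.00424). COL1A1 and COL3A1 rose by 1.07 and 0.92 (edgeR adjusted p = 0.00577 and 0.00461), with replicate 6 of 24 h at 14 and 11.3 CPM, inside the 6 h range. Both are also markers of fibroblasts. Of 8 such markers, 3 reached 1 CPM and 5 of 5 tested were higher at an adjusted p under 0.05. Their sum was 24.6 to 27.1 CPM at 6 h and 28.1 to 66.8 CPM at 24 h. The summed neuron markers were at 16.1 to 17.5 CPM at 6 h and 19.3 to 31.8 CPM at 24 h, and those of the proximal tubule at 5.46 to 7.22 CPM and 8.37 to 16.4 CPM. The part of these markers in the result was not tested. Defining markers of hepatocytes and endothelial cells were all below 1 CPM, and 11 of 12 markers of the HEK293 line reached 1 CPM.

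Transcripts of the receptors for AII and EGF rose. AGTR1, which encodes the receptor the line was built to carry, had 4381, 4203, 4496 and 4010 CPM at 6 h and 4740 to 10419 CPM with a median of 7468 CPM at 24 h (log2 change 0.82 ± 0.19 (SE), edgeR adjusted p = 0.00934). The groups did not overlap, and replicate 6 was again the lowest of 24 h. Its call held in 2 of the 10 fits that left out a library. Reads of the introduced copy and of the endogenous gene cannot be told apart in these counts. EGFR stood at 16.7, 23, 19.6 and 17.5 CPM and rose to 23.9 to 36.2 CPM with a median of 30.4 CPM (log2 change 0.67 ± 0.14 (SE), edgeR adjusted p = 0.00662). HBEGF, a ligand of EGFR, had 3.44, 3.27, 3.65 and 3.15 CPM at 6 h and 3.08 to 3.85 CPM with a median of 3.52 CPM at 24 h, with a log2 change of 0.05 (edgeR adjusted p = 0.851, not called). Of 24 tested receptors and ligands, 2 were called higher (3.42% of all genes), 9 were higher at an adjusted p under 0.05 (14.1% of all genes) and none was lower (median 0.36). Without single libraries these counts were 0 to 3 and 4 to 11.

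Several cholesterol genes fell. Of 25 tested members 20 had a negative log2 change, 7 were lower at an adjusted p under 0.05, none was higher and 2 were called lower (median -0.31), beside 7.95% and 1.06% of all genes. Without single libraries these counts were 3 to 12 and 0 to 6. ACAT2, the cytosolic thiolase at the entry to the pathway, had 179, 156, 159.7 and 156 CPM at 6 h and 63.1 to 127 CPM with a median of 81.2 CPM at 24 h (log2 change -0.91 ± 0.16 (SE), edgeR adjusted p = 0.00323). Squalene epoxidase (SQLE) was at -0.59 (edgeR adjusted p = 0.00541). HMGCS1, which makes HMG-CoA, had -0.50 and did not pass (edgeR adjusted p = 0.0676). The list mean on the log2(CPM + 1) scale was -0.44 to -0.22 in 5 libraries at 24 h and -0.02 in replicate 6.

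Clock genes gave a mixed picture. CRY1, a repressor of the clock, fell from 39.7, 36.3, 37.9 and 32.4 CPM to 16.3 to 27.6 CPM with a median of 21.4 CPM without overlap (log2 change -0.75 ± 0.13 (SE), edgeR adjusted p = 0.00321). It was the only called member of 19, beside 1.06% of all genes called lower and 3.42% called higher. At an adjusted p under 0.05, 26.3% of the list was higher, beside 14.1% of all genes. Higher at an adjusted p under 0.05 were the repressors BHLHE40 (1.18, edgeR adjusted p = 0.0245), BHLHE41 (0.92, edgeR adjusted p = 0.0133) and CIART (1.24, edgeR adjusted p = 0.0343), the CLOCK paralog NPAS2 (0.52, edgeR adjusted p = 0.0296) and the D-box binding factor TEF (0.62, edgeR adjusted p = 0.0346). BHLHE40, also a HIF target, had 35 CPM in control 24 h replicate 6 and 132 to 154 CPM in the other 5. CIART was near the floor at 6 h, with 0.697 CPM in replicate 5 and 0.364 to 0.399 CPM in the other libraries. The activator genes BMAL1 (0.32) and CLOCK (-0.32) and the repressors PER1 (0.34), PER2 (0.06), PER3 (-0.01) and CRY2 (0.10) did not pass. Neither did NR1D1 (0.52), NR1D2 (-0.17), RORA (0.48), DBP (0.23), HLF (0.30), NFIL3 (0.19) and BMAL2 (-0.33). With a 6 h and a 24 h point only, no cycle can be read from these values.

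Smaller groups held single genes that moved. TXNIP and its relative ARRDC4, arrestins that limit glucose uptake, rose 2.74-fold and 2.21-fold (edgeR adjusted p = 0.00195 and 0.00609). TXNIP had 68, 58.5, 70.1 and 47.9 CPM at 6 h, 176 to 195 CPM in 5 libraries at 24 h and 76.9 CPM in replicate 6. In the FOXO list they were the called members of 26 (median 0.15). Of 31 genes of amino acid supply under ATF4, VLDLR (1.60), NUPR1 (1.07) and STC2 (0.82) were called higher and the amino acid transporter gene SLC7A5 (-0.71) lower (edgeR adjusted p = 0.00156, 0.00779, 0.0085 and 0.00304). HMOX1, which degrades heme, rose by 1.31 (edgeR adjusted p = 0.00443) as the called member of 20 in the NRF2 list. Over all genes 3.42% were called higher and 1.06% lower, so a single called member of 20 is near the background. Called members of other lists were the ER chaperone gene DNAJB11 (-0.59, edgeR adjusted p = 0.00856), the lysosomal membrane protein gene LAMP1 (-0.69, edgeR adjusted p = 0.00513), the p53 target SPATA18 (0.61, edgeR adjusted p = 0.00443), the immediate-early gene NR4A1 (0.61, edgeR adjusted p = 0.00749) and LTBP2, a latent TGF-beta binding protein (0.87, edgeR adjusted p = 0.00242). None was called in the lists for YAP targets, MRTF-SRF targets, interferon-stimulated genes, metallothioneins, Krüppel-like factors, fatty acid synthesis, cholesterol export, oxidative phosphorylation and long noncoding RNAs. At an adjusted p under 0.05, 4 of 18 YAP targets, 3 of 19 MRTF-SRF targets and 4 of 19 interferon-stimulated genes were higher, and 4 of 7 genes of metallothioneins and zinc transport and 3 of 30 of oxidative phosphorylation were lower. Over all genes 14.1% were higher and 7.95% lower, so several of these shares lie near the background.

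**Figure D4:**
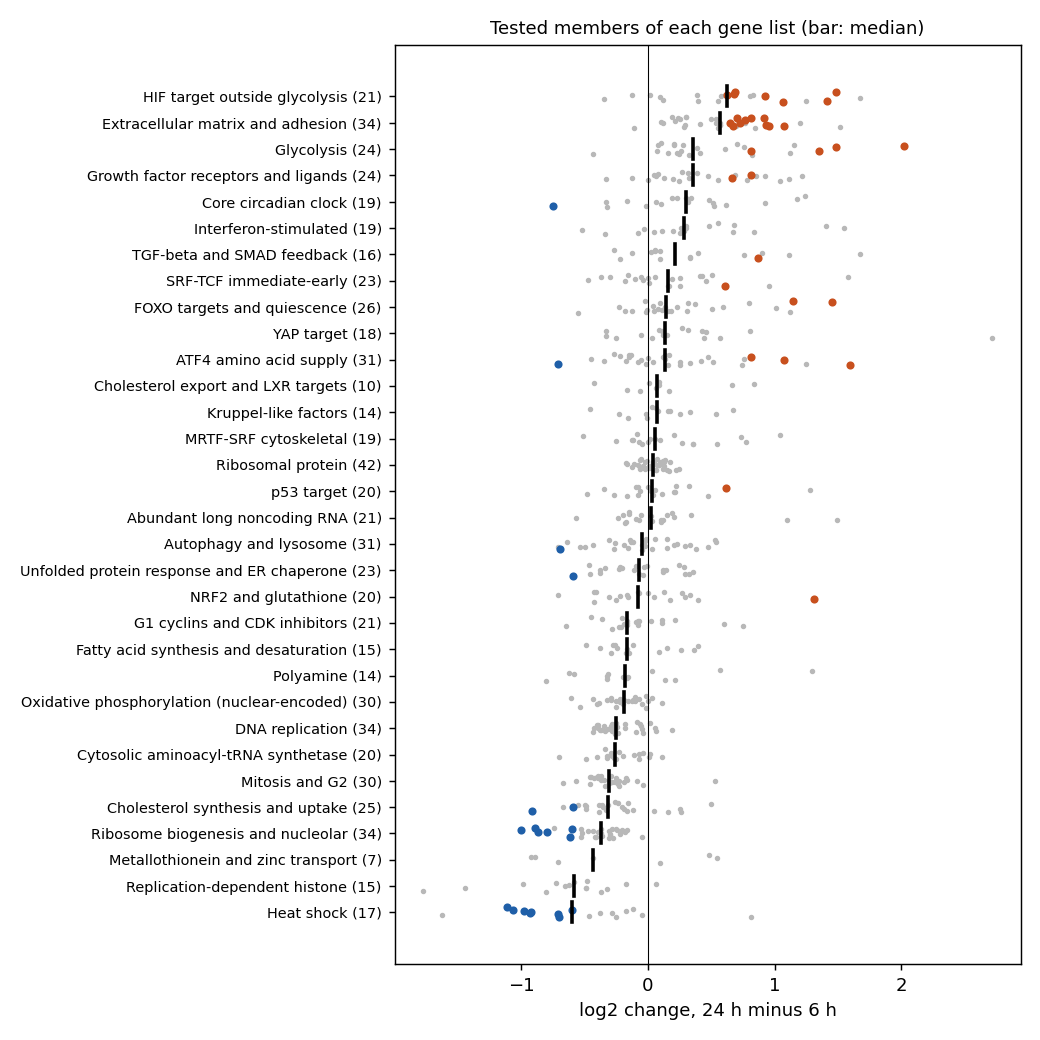
Log2 change from 6 h to 24 h (horizontal axis) of each tested member (points) of the 32 gene lists (rows, number tested in brackets), sorted by the median (black bar). Orange and blue points are called higher and lower, grey points are not called. HIF targets and matrix genes have the highest medians (0.63 and 0.57), heat shock genes the lowest (-0.60).

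The same genes were then followed in libraries that received a stimulus, which share no library with the control comparison. Time and run cannot be told apart there either. These libraries share title runs with control libraries of the same time, so a difference between runs would appear in both. Of the 797 genes called in control cells, 781 (98%) had the same direction between AII 6 h (n = 6) and AII 24 h (n = 5), and 606 were called there in that direction (background 11.2%). Here and below, the background is the share of all tested genes called in either direction. In control cells all 797 genes exceeded 5 CPM, as a call requires, but only 67.7% of tested genes did. The shares are therefore not like for like. Over all genes tested with AII, 51.6% had a positive change. With EGF (n = 3 and 5), 773 had the same direction and 605 were called (background 16.1%). With AII + EGF (n = 5 and 6), 739 had the same direction and 588 were called (background 23.7%). In AII libraries the genes called higher in control had a median log2 change of 0.91 and those called lower -0.87.

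Groups of genes differed in how far the stimulated libraries followed. The heat shock list had medians of -0.74 with AII and -0.83 with EGF, and ribosome biogenesis -0.51 and -0.68, beside -0.60 and -0.37 in control cells. With AII + EGF the medians of these lists were -1.02 and -0.86. HIF targets had 0.21 with AII and 0.29 with EGF, beside 0.63 in control cells, and -0.20 with AII + EGF, where 4 were higher and 6 lower at an adjusted p under 0.05. These differences between lists were not tested. TFRC rose by 1.21 with AII and 2.07 with EGF, and stood at 0.11 with AII + EGF. EGFR, at 0.67 in control cells, had 0.06 with AII, 0.08 with EGF and -0.53 with both. In the direct test of AII against control described next, neither gene passed. The difference of log2 changes was -1.03 ± 0.33 (SE) for TFRC and -0.59 ± 0.19 (SE) for EGFR (edgeR adjusted p = 0.389 and 0.369). Such differences were not tested for EGF or AII + EGF.

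A direct test of the difference between the time changes, over 21 libraries of the AII and control groups, called 15 of 18627 genes (0.0805%). In all 15 the change from 6 h to 24 h was more negative with AII. They included the ER chaperone genes HSPA5 and HYOU1, the protein disulfide isomerase PDIA4 and the amino acid genes PSAT1 and SLC7A11, named after their values were seen. HSPA5 had 400 and 468 CPM in control cells at 6 h and 24 h and 875 and 438 CPM with AII (difference of log2 changes -1.22 ± 0.13, SE, edgeR adjusted p = 1.59e-05). PSAT1, of serine synthesis, had 82.5 and 78.4 CPM in control cells and 222 and 83.4 CPM with AII (-1.34 ± 0.19, SE, edgeR adjusted p = 0.000528). In both genes the AII 6 h level was the highest, and the change in control cells did not pass (edgeR adjusted p = 0.121 for HSPA5 and 0.774 for PSAT1). Of the 797 genes called in control cells, 1 was among the 15. Leaving out 1 library gave 8 to 20 genes.

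**Figure D5:**
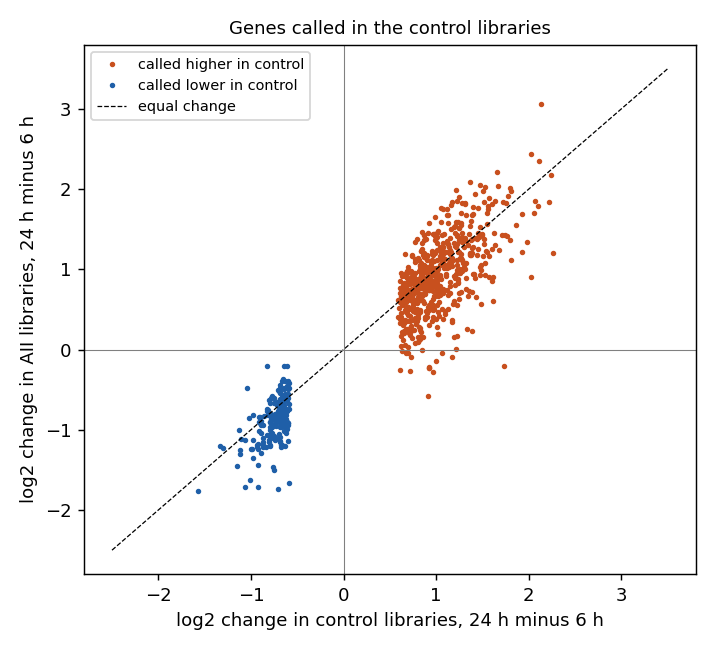
Log2 change from 6 h to 24 h in the AII libraries (vertical axis) against that in the control libraries (horizontal axis) for the 797 genes called in control cells. Orange marks genes called higher and blue those called lower in control cells, and the dashed line is equal change. Of the 797 points, 781 lie on the same side of 0 in both.

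A few features that the calls did not use were set beside those of tested genes. Protein-coding genes made up 91.8% of the rises and 93.7% of the falls, near the 92% of tested genes above 5 CPM. RefSeq gene spans were longer for the rises (median 42.1 kb) than for the falls (21.3 kb), with 31.5 kb over tested genes above 5 CPM. Promoters matched for 152 of the 189 falls. The E-box CACGTG was found in 14.5% of them and ACGTG in 35.5%, against 8.82% and 23.1% of the promoters of tested genes and 6.49% and 18.7% of all promoters. CCAAT was found in 44.1%, against 35% of tested genes and 33% of all. The same check is void for the rises, of which 444 of 608 had a promoter entry.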

How the data were processed

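Poly(A) RNA-seq of 48 HEK293 libraries was deposited as raw counts per gene. According to the deposited labels, column names and the methods of the study, the authors aligned reads to hg38 with HISAT2 2.1.0 and counted them with featureCounts. The strand setting of the counting is not given in the sources used here. Multi-copy and overlapping genes may therefore be counted incompletely or jointly.

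Counts of 10 control libraries were tested in R 4.3.3 with edgeR 4.0.16 (filterByExpr, TMM factors, quasi-likelihood test, Benjamini-Hochberg adjustment over 17780 of 60610 genes). The call limits were 0.01 for the adjusted p, 1.5 for the fold and 5 CPM for the higher of the 2 means. Depth was 19 to 26.9 M counts per library. Library totals were compared by the exact permutation test. Of the gene IDs, 58609 matched a symbol. Pairs of libraries were compared by a chi-square of their counts, and 4 of 1128 pairs differed by less than counting noise. Stimulated groups were fitted separately without such pairs. The fit was also run on simulated counts with known changes as a check of the code only, and its outcome is not reported here.

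The gene sets and the 32 lists were chosen with earlier results of these data known. Named are the 12 largest rises and falls without overlap, called list members (up to 3 a direction), the tested clock and cholesterol genes (some of the latter are not reported here), AGTR1, EGFR and HBEGF. DNAJA1, HSPB1, DDX21, SRM, AMD1, PAOX, SAT1, BUB1, CDC20, H2BC4, CCNE1, VEGFA, EPAS1, HIF1A, SLC16A1, COL3A1, NEAT1 and the genes of the AII difference were named after their values were seen, and so were HSPA8, HSPA1B and HSP90AA1. Alternatives covered DESeq2 1.42.0, scaling, filters, call limits, the libraries used and leaving out each library. Promoters and gene positions came from RefSeq (GRCh38.p14).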

Additional observations from a re-analysis of the deposited data

Results flagged for a closer look

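In 85 named genes, 170 groups of libraries were examined for a lone value far from the rest, and 27 held one. Chance alone gives about 1 in 20 groups. The 27 values are not independent, since 15 belong to control 24 h replicate 6, 6 to control 6 h replicate 6, 5 to control 6 h replicate 5 and 1 to control 24 h replicate 3.

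Control 24 h replicate 6 was lower than the other 5 libraries of its group in 9 genes. Its values were 5.93 CPM in OLFML2A (16.3 to 18.2 in the others), 11.3 in COL3A1 (19.6 to 22.7), 21.6 in LOX (47.1 to 61.8), 63.9 in P4HA1 (141 to 156) and 4.17 in SLC2A3 (17.1 to 24.3). The same library had 76.9 CPM in TXNIP (176 to 195), 35 in BHLHE40 (132 to 154), 5.12 in BHLHE41 (9.96 to 12.2) and 36.9 in STC2 (61.1 to 73). It was higher in 6 genes, with 5.33 CPM in CTBP2P9 (2.35 to 3.08), 5.12 in CTBP2P10 (2.35 to 3.05), 5.26 in CARD8-AS1 (2.8 to 3.47), 18.8 in RRS1 (9.84 to 11.4), 126 in DNAJB11 (75.2 to 92.6) and 22.5 in CCNE1 (12.1 to 14.3). All 15 values lay on the side of the 6 h libraries.

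Control 6 h replicate 6 was lower than the other 3 libraries in CTBP2P9 (6.25 CPM), CTBP2P10 (5.99), LOX (14.4) and SLC2A3 (1.82), and higher in HSPA1B (448) and the long noncoding RNA NEAT1 (157, beside 62.4 to 74.8). Control 6 h replicate 5 was lower in COL1A1 (12.1 CPM), SLC7A5 (70.1) and CCNE1 (21.2), and higher in TEF (8.9) and CIART (0.697). Control 24 h replicate 3 was higher in SRM (128 CPM).

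The change with time differed between AII and control cells in 15 genes by the test of the difference itself.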

How the results depend on the processing

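The counts moved between alternatives. The direction of all 797 called genes was kept under each, which their selection from the same libraries largely fixes. DESeq2 called 1227 genes (376 lower). Without a filter on low counts 1201 were called (300 lower), at an adjusted p under 0.05 with the other limits kept 1358 (1039 higher, 319 lower), without the fold minimum 292 were lower, and without the abundance minimum 915 were higher. With library totals alone 96 were lower. Fitting all groups without near-identical pairs gave 1206 (396 lower), and all 48 libraries gave 352 (266 higher, 86 lower). Adding control 6 h replicates 1 and 2 gave 3 (0 higher, 3 lower) and 445 at an adjusted p under 0.05, and turned the difference of library totals from 2.31 to -2.45 M counts. Sums per run gave 1 gene (1 higher, 0 lower). Titles a9 to a32 alone gave 36 (31 higher, 5 lower), and titles a33 to a48 alone gave 0 with edgeR (0 higher, 0 lower, 1179 genes at an unadjusted p under 0.05; DESeq2 was not run there). Without control 24 h replicates 3 and 6, chosen after the data were seen, 1925 were called (1140 higher, 785 lower). Leaving out 1 library gave 34 to 1408 called genes, 30 to 984 higher and 4 to 424 lower. The count of genes whose change differed between AII and control went from 15 to 37 with DESeq2 and to 8 to 20 without single libraries. The causes were not tested. Where a library is left out, fewer samples enter the fit.

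No paired analysis was possible because the labels carry no replicate numbers. A fit with the earlier and later titles as blocks called 747 genes (569 higher, 178 lower). Over 117 genes and 23 alternatives, 2100 of 2691 values kept their side of the call limits, 516 lost the call, 75 gained it and 0 called genes reversed. Genes under 5 CPM could not be called, which limits low-count genes.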
